A study of Mus musculus with 15 samples.

Results

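The 10 genes described here encode matrix proteases, their receptor and their inhibitors: the matrix metalloproteinase (MMP) genes Mmp12, Mmp13, Mmp14 and Mmp19, the metalloproteinase inhibitor genes Timp1 and Timp2, the urokinase gene Plau and its receptor gene Plaur, and the ADAM protease genes Adam8 and Adam19. They were chosen by name as members of the MMP, TIMP, ADAM and urokinase families, with earlier results of these data known. They are 10 of the 57186 genes in the table, of which 19839 had at least 10 counts in all and were tested. All 10 passed that count filter, Adam19 only through its MSNP libraries, so its MSNP values are given as a description. The counts of calls below are over the other 9, except where Adam19 is said to be included. RNA was sequenced from RAW 264.7, an established mouse macrophage cell line, after 6 h with 1 of 4 silica nanoparticles (SNPs). The groups were the nonporous SNP100 (nominal diameter 100 nm, 50 µg/mL), the nonporous SNP50 (50 nm, 25 µg/mL), the mesoporous MSNP (100 nm, 200 µg/mL), the hollow mesoporous HMSNP (100 nm, 200 µg/mL) and nontreated controls without particles, with 3 libraries in each group. Each dose was chosen in the study as the highest nontoxic one of that particle, so only MSNP and HMSNP shared a dose. A single transformed line was used at 1 time point, and the sample titles of each group carry a number of its own, whose meaning the labels do not state. Treatment and whatever that number marks cannot be told apart. The labels do not say that the 3 libraries of a group came from separate cultures, so p-values measure the spread between libraries, which may be technical.

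MMPs are zinc-dependent proteases that are made as inactive zymogens and cleave collagens, elastin and many other proteins outside the cell, and TIMPs bind and block their active sites. Urokinase converts plasminogen into the broad protease plasmin, and it does so mainly while bound to its receptor uPAR at the cell surface. ADAM proteases sit in the cell membrane and release the outer parts of membrane proteins. Macrophages are a major source of the elastase MMP12, and of urokinase and its receptor, in inflamed tissue.

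Promoter sequences are shown first for the members whose windows hold an AP-1 element, since AP-1 elements close to the start site are a known feature of MMP and urokinase receptor promoters. RefSeq windows on the GRCm38.p6 build, from 250 bases before to 50 bases after a transcription start, were given for 8 of the 10 genes in 11 windows. They were searched on both strands for TGANTCA (AP-1), CACGTG (E-box) and TGACGT (part of the cAMP response element, CRE). The AP-1 letters were found in 1 window each of 4 of these 8 genes, Mmp12, Mmp13, Adam19 and Plaur. Of all 32851 windows of this length 7.81% hold them, a share per window and not per gene. The other matches were an E-box in 1 window of Adam19 and the CRE letters in that of Timp1, and 7.15% and 7.51% of all windows hold these. Below, the capitals mark the AP-1 letters, which begin 44 bases before the start in the second Mmp12 window (chr9:7347124-7347423), 35 bases before it in Mmp13 (chr9:7272264-7272563) and 69 bases before it in Plaur (chr7:24462233-24462532). These windows lie on the plus strand. TGANTCA is its own reverse complement, so a match has no orientation.
Mmp12, second window: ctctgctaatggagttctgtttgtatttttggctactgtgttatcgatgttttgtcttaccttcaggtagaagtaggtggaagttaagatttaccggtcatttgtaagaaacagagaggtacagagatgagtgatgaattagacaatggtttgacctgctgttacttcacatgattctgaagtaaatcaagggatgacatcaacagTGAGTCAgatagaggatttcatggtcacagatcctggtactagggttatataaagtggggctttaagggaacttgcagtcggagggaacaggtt
Mmp13: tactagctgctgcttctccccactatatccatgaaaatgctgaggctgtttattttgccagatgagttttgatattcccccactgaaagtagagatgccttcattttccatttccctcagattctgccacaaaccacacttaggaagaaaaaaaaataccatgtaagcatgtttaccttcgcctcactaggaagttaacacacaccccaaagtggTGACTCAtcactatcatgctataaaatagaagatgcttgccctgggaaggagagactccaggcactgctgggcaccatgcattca
Plaur: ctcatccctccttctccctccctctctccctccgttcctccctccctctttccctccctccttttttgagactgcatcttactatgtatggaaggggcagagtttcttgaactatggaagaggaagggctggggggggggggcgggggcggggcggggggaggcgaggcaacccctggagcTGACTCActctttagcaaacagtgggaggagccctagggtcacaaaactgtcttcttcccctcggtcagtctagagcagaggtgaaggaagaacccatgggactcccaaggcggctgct
Of these 3 genes, Mmp12 was higher and Plaur lower after MSNP, as described below, and Mmp13 had too few counts for a direction. A match is a description of letters and not a measured binding site.

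The libraries held 29369934 to 42617812 counts. The labelled cell type held: all 7 macrophage markers were at or above 1 CPM (counts-per-million of the library total) in every group, and the summed level of 5 fibroblast markers did not pass 0.0889 CPM in any library. The control libraries differed from each other more than the libraries of a treated group did, with a mean chi-square per gene of 66.2 to 205 between pairs of controls and 4.58 to 13.9 between pairs of treated libraries. Control replicate 3 stood farthest apart. In it the median gene of the shortest 10% by exonic length was 0.607 above, and that of the longest 10% was 0.6 below, the mean of the other controls on the log2 scale. For treated libraries, each set against the others of its group, these medians were within 0.143 of 0. Control replicate 2 lay the other way, at -0.378 for the shortest and 0.417 for the longest genes. Values of the members against the controls are therefore also given without a control library where a call changed or a value moved. Fewer cells of a kind and less RNA per cell cannot be told apart in these bulk samples.

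Per kilobase of exon, the scale on which levels of different genes can be compared, Plau and Adam8 were by far the most abundant of the 10 transcripts, with means over the 15 libraries of 229.5 and 166.5 CPM per kb. In the nontreated controls they did not differ beyond their spread, at 161.5 ± 14.2 CPM per kb for Plau and 161 ± 21.5 CPM per kb for Adam8 (SD, n = 3). Plaur followed with a mean of 17.2 CPM per kb, then Timp2 with 3.94 and Mmp19 with 2.04. The remaining 5 genes were each at or below 0.295 CPM per kb on average. Among these, Mmp12 at 0.0664 ± 0.027, Mmp14 at 0.102 ± 0.019 and Timp1 at 0.0431 ± 0.0293 CPM per kb in the controls (SD, n = 3), Mmp12 overlapped both others. The lowest Mmp14 control library, at 0.0840 CPM per kb, lay above the highest of Timp1, at 0.0739. Mmp13 and Adam19 had 21 and 16 counts in all 15 libraries together. RAW 264.7 cells thus expressed urokinase and ADAM8 strongly and the MMPs weakly, in every group.

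**Figure D1:**
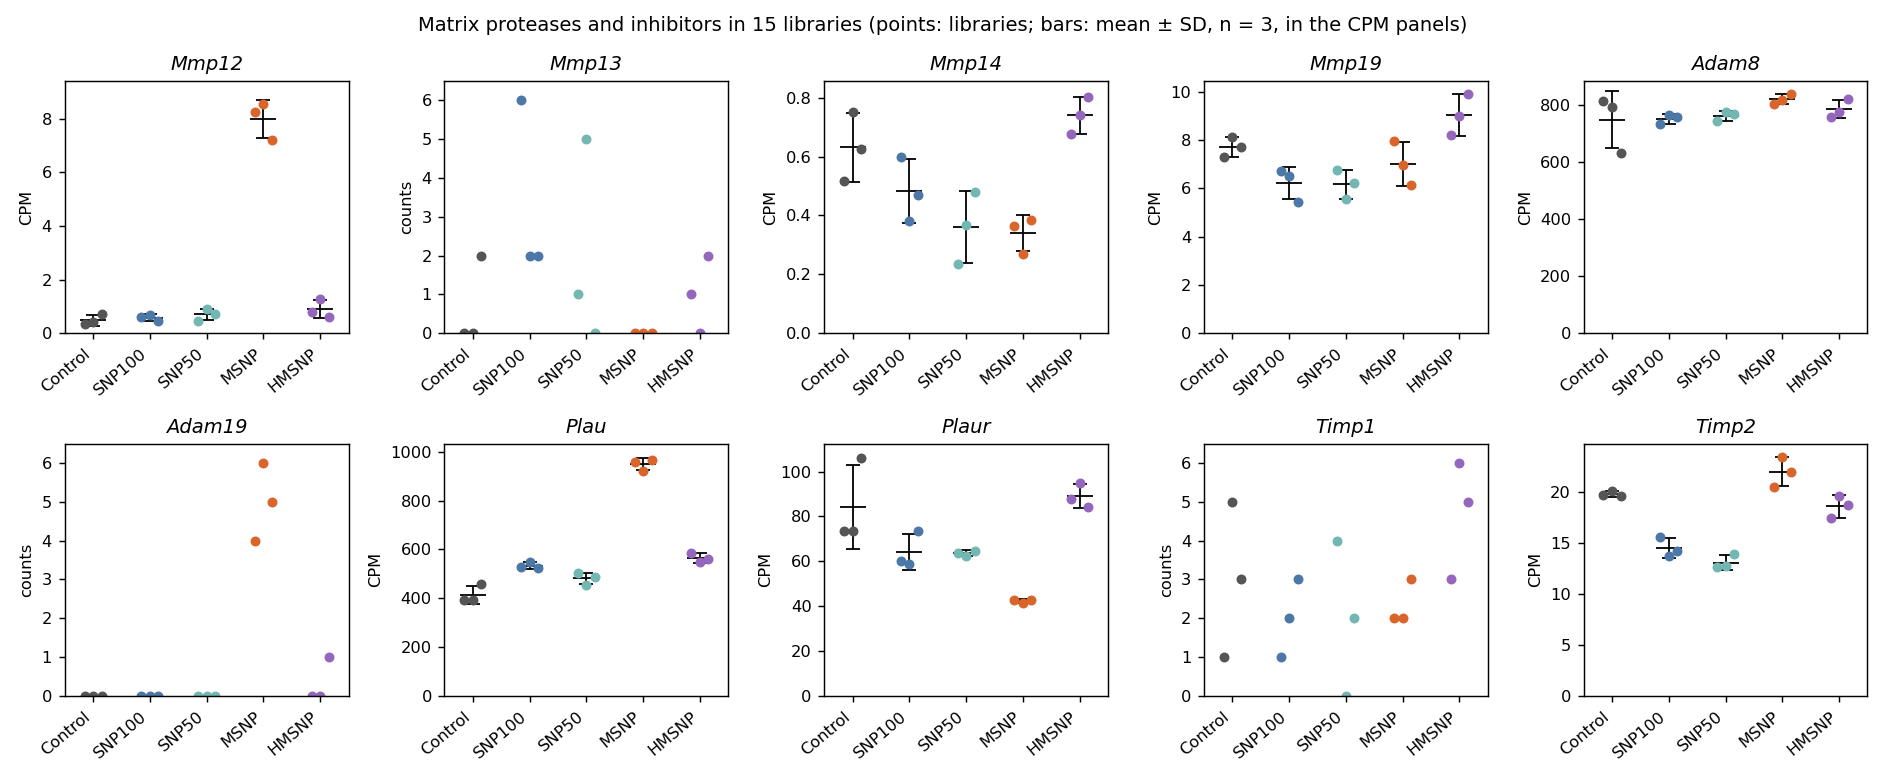
Level of each of the 10 genes (vertical axes, CPM on TMM-scaled totals, or raw counts for Mmp13, Adam19 and Timp1) in the 5 groups (horizontal axes). Points are libraries and bars show mean ± SD of 3 libraries in the CPM panels. The 3 MSNP libraries stand alone at 7.20 to 8.56 CPM for Mmp12 and at 922 to 967.4 CPM for Plau, while Adam8 differs little between groups.

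Mmp12, which encodes macrophage elastase, was the only MMP gene called higher with MSNP. It lies on the plus strand at chr9:7344381-7369499 (GRCm39), between other MMP genes. Its level was 0.335, 0.405 and 0.703 CPM in the controls, 0.624, 0.680 and 0.443 CPM after SNP100 and 0.473, 0.907 and 0.736 CPM after SNP50. It was 8.23, 8.56 and 7.20 CPM after MSNP, and 0.793, 1.27 and 0.619 CPM after HMSNP. The 3 MSNP libraries lay far above all other libraries, whose ranges overlapped between groups. Mmp12 rose 16.3-fold with MSNP, a log2 fold change of 4.02 ± 0.28 (SE) with an adjusted p of 4.15e-08 in the quasi-likelihood test of edgeR, adjusted by Benjamini-Hochberg over all tested genes, and the log2 fold change was 4.43 without Control replicate 3. With HMSNP the log2 fold change was 0.86 (95% interval 0.165 to 1.56), which did not pass the edgeR test (adjusted p = 0.135). Without Control replicate 3 it was 1.25 and did pass (edgeR adjusted p = 0.0355), so the HMSNP value rests on 1 control library. For SNP100 and SNP50 the log2 fold changes were 0.26 and 0.54, and did not pass (edgeR adjusted p = 0.815 and 0.594). They were 0.65 and 0.94 without Control replicate 3, also with no call (edgeR adjusted p = 0.414 and 0.0957). The control libraries held only 11, 14 and 27 Mmp12 counts, against 249, 317 and 243 in the MSNP libraries.

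Mmp14 encodes MT1-MMP, a membrane-bound collagenase that also activates pro-MMP2 together with TIMP2. Its transcript was scarce, at 7 to 35 counts per library. The levels were 0.518, 0.752 and 0.625 CPM in the controls, 0.598, 0.381 and 0.471 CPM after SNP100 and 0.236, 0.369 and 0.480 CPM after SNP50. They were 0.364, 0.270 and 0.385 CPM after MSNP and 0.676, 0.743 and 0.802 CPM after HMSNP. All 3 MSNP libraries lay below every control, and those of HMSNP overlapped the controls. Mmp14 fell by 0.90 ± 0.275 (SE) on the log2 scale with MSNP (edgeR adjusted p = 0.0281). That call was lost with DESeq2 (adjusted p = 0.0647), without MSNP replicate 1 or 2 (edgeR adjusted p = 0.0658 and 0.13) and without Control replicate 2 (edgeR adjusted p = 0.0746). With SNP50 the log2 fold change was -0.79 and did not pass (edgeR adjusted p = 0.227).

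Mmp19, which encodes a basement membrane-cleaving MMP, stayed within a narrow range. It was at 7.31, 8.13 and 7.73 CPM in the controls, 6.71, 6.51 and 5.46 CPM after SNP100, and 6.75, 5.56 and 6.24 CPM after SNP50. After MSNP it was at 7.97, 6.96 and 6.14 CPM, and after HMSNP at 8.20, 9.02 and 9.92 CPM. The libraries of both nonporous particles lay below the controls and those of HMSNP above them, but no comparison with the controls passed the edgeR test (adjusted p from 0.242 to 0.445). Its exons overlap those of Tmem198b on the opposite strand, which held 2315 counts against 3861 for Mmp19. Whether the counting used strand is not given in the sources used here, so the reads of the pair may not be cleanly separated. Mmp13, which encodes a collagenase, held 0, 0 and 2 counts in the controls, 6, 2 and 2 after SNP100, 1, 5 and 0 after SNP50, 0 in each MSNP library and 1, 0 and 2 after HMSNP. No difference from the controls passed the edgeR test (adjusted p from 0.385 to 0.893). For SNP100 the 10 counts against 2 gave a ratio of 4.76, with a 95% counting interval of 1.01 to 44.6.

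Adam8, which encodes a membrane protease of myeloid cells that sheds surface proteins, was the most evenly expressed of the abundant members. The controls were at 814.6, 793.5 and 632.5 CPM, the SNP100 libraries at 731.5, 765 and 755.9 CPM and the SNP50 libraries at 742.3, 772.9 and 767 CPM. The MSNP libraries were at 803.9, 817.1 and 837.3 CPM and the HMSNP libraries at 757.8, 774.9 and 821 CPM. Each treated group overlapped the controls, whose spread was set by replicate 3. The log2 fold changes were 0.01, 0.03, 0.13 and 0.07 for SNP100, SNP50, MSNP and HMSNP, and none passed the edgeR test. The 95% interval for MSNP, -0.0369 to 0.304, leaves room for a small rise. Without Control replicate 3 the values were -0.10, -0.085, 0.036 and -0.036, also with no call. At 21987 to 35833 counts per library, counting error was not the limit for this gene. The antisense gene Gm16201, whose exons overlap Adam8, held 9752 counts against its 408932.

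Adam19, which encodes a membrane protease that sheds neuregulins among other proteins, was found in essentially 1 group. All control, SNP100 and SNP50 libraries held 0 counts, the MSNP libraries held 4, 6 and 5, and the HMSNP libraries 0, 0 and 1. With 15 counts against 0, Adam19 was at least 5.24-fold higher after MSNP than in the controls by a simple bound. The bound takes 3 counts over the group as the limit that a count of 0 allows, and the 15 counts as exact. Without the MSNP libraries the gene held 1 count and would not have been tested. No p-value of its MSNP values is therefore given, and its calls enter only the counts said to include it. Such bounds cover only the counting error of the group at 0 counts. The counting intervals cover that of both groups, and neither covers other spread between libraries.

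Plau, the gene of the serine protease urokinase on the plus strand at chr14:20886722-20893453 (GRCm39), was higher in treated cells. The controls were at 393.8, 393 and 456.7 CPM. The SNP100 libraries were at 526.6, 550.3 and 523.8 CPM and the SNP50 libraries at 501.7, 456.3 and 488.3 CPM. The HMSNP libraries were at 587.4, 550.2 and 559.9 CPM, and the MSNP libraries at 957.7, 922 and 967.4 CPM. All SNP100, MSNP and HMSNP libraries lay above every control, and 1 SNP50 library fell just below the highest control. Plau rose 2.29-fold with MSNP, a log2 fold change of 1.19 ± 0.0684 (SE, edgeR adjusted p = 4.45e-09). It rose by 0.45 ± 0.0676 with HMSNP (edgeR adjusted p = 0.00113) and by 0.36 ± 0.0676 with SNP100 (edgeR adjusted p = 0.0169), both on the log2 scale with SE. The SNP100 call did not hold without SNP100 replicate 2 or 3 (edgeR adjusted p = 0.085 and 0.0531). With SNP50 the log2 fold change of 0.22 ± 0.0675 (SE) did not pass (edgeR adjusted p = 0.163), whereas DESeq2 called it (adjusted p = 0.0121), as did edgeR without Control replicate 3 (0.29, adjusted p = 0.000408). Without that control, the Plau values of the called groups were 1.28 for MSNP, 0.52 for HMSNP and 0.44 for SNP100.

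Plaur, the gene of the urokinase receptor at chr7:24161875-24175394 on the plus strand (GRCm39), moved the opposite way with MSNP. The controls were at 73.32, 73.3 and 105.9 CPM, the SNP100 libraries at 60.28, 58.73 and 73.49 CPM, and the SNP50 libraries at 63.91, 62.53 and 64.8 CPM. The MSNP libraries were at 42.8, 41.43 and 42.8 CPM and the HMSNP libraries at 87.83, 94.86 and 84.41 CPM. The MSNP libraries were the lowest of all, with a spread of 0.793 CPM (SD, n = 3), and the HMSNP libraries lay inside the range of the controls. Plaur fell by 0.99 ± 0.126 (SE) on the log2 scale with MSNP (edgeR adjusted p = 2.52e-05), and by 0.78 without Control replicate 3, the highest control. With HMSNP the log2 fold change was 0.08 (edgeR adjusted p = 0.724), and 0.28 without that control (edgeR adjusted p = 0.0277). SNP100 and SNP50 gave -0.39 and -0.40, which did not pass the edgeR test (adjusted p = 0.218 and 0.162). Without Control replicate 3 these Plaur values were -0.19 and -0.21, also with no call (edgeR adjusted p = 0.167 and 0.0684). In the same MSNP libraries, ligand transcript was therefore higher and receptor transcript lower.

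Plat, the gene of tissue-type plasminogen activator, was scarce. It was at 0.579, 0.867 and 0.625 CPM in the controls, 0.520, 0.218 and 0.609 CPM after SNP100 and 0.203, 0.425 and 0.416 CPM after SNP50. It was at 0.0992, 0.135 and 0.0889 CPM after MSNP and 0.147, 0.159 and 0.321 CPM after HMSNP. All libraries of MSNP and HMSNP lay below every control. Plat fell by 2.63 ± 0.461 with MSNP and by 1.67 ± 0.395 with HMSNP, on the log2 scale with SE (edgeR adjusted p = 0.000562 and 0.0245). The HMSNP call held in 19 of 22 alternative settings, and not without HMSNP replicate 1 or 2. Plau and Plat, both plasminogen activator genes, thus differed in direction with both porous particles. Lrp1, which encodes a large endocytic receptor, was not called against the controls in any group, at 1271 ± 698 CPM in the controls (SD, n = 3).

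Timp2 was the inhibitor with a measurable level. It encodes a secreted inhibitor of MMPs that also takes part in pro-MMP2 activation, and it lies on the minus strand at chr11:118191887-118246566 (GRCm39). The controls were at 19.7, 20.1 and 19.55 CPM, the SNP100 libraries at 15.61, 13.74 and 14.21 CPM and the SNP50 libraries at 12.59, 12.7 and 13.92 CPM. The MSNP libraries were at 20.52, 23.43 and 21.99 CPM and the HMSNP libraries at 17.4, 19.62 and 18.67 CPM. The nonporous particles gave the 6 lowest libraries, MSNP lay just above the controls and HMSNP overlapped them. Timp2 fell by 0.60 ± 0.0795 with SNP50 (edgeR adjusted p = 0.00204) and by 0.45 ± 0.0787 with SNP100 (edgeR adjusted p = 0.0123), on the log2 scale with SE. The SNP100 call did not hold without SNP100 replicate 2 or 3 or without Control replicate 1 (edgeR adjusted p = 0.113, 0.0641 and 0.0662), while the SNP50 call held without any single library. With MSNP and HMSNP the log2 fold changes were 0.15 and -0.09, which did not pass (edgeR adjusted p = 0.182 and 0.489). Timp1, a cytokine-responsive MMP inhibitor in many cells, held 0 to 6 counts per library, 42 in all, and no comparison passed the test.

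Counted by treatment over the 9 genes other than Adam19, the most calls came with MSNP. With MSNP 4 of 9 passed the edgeR test, Mmp12 and Plau higher and Plaur and Mmp14 lower, where 22.8% of all tested genes passed, 11.8% higher and 11% lower. With SNP100 2 of 9 passed, Plau higher and Timp2 lower, where 0.912% of all tested genes did. SNP50 had Timp2 alone, 1 of 9, against 1.41% of all genes, and HMSNP had Plau alone, 1 of 9, against 5.16%. These shares of all genes moved with single control libraries. Without Control replicate 3 they were 5.16% for SNP100, 18.9% for SNP50 and 8.66% for HMSNP, and without Control replicate 2 they were 25.2% for HMSNP and 33.2% for MSNP. Without SNP100 replicate 2, SNP50 replicate 3 or HMSNP replicate 2 the share of that particle fell to 0.29%, 0.443% and 2.51%. The median log2 fold change of the 9 genes was -0.31, -0.32, -0.14 and 0.23 for SNP100, SNP50, MSNP and HMSNP, beside -0.02, -0.00, -0.05 and -0.04 over all tested genes. The 4 comparisons share their control libraries. Calls present with 1 particle and absent with another are not by themselves a difference between particles, which the direct comparisons give.

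**Figure D2:**
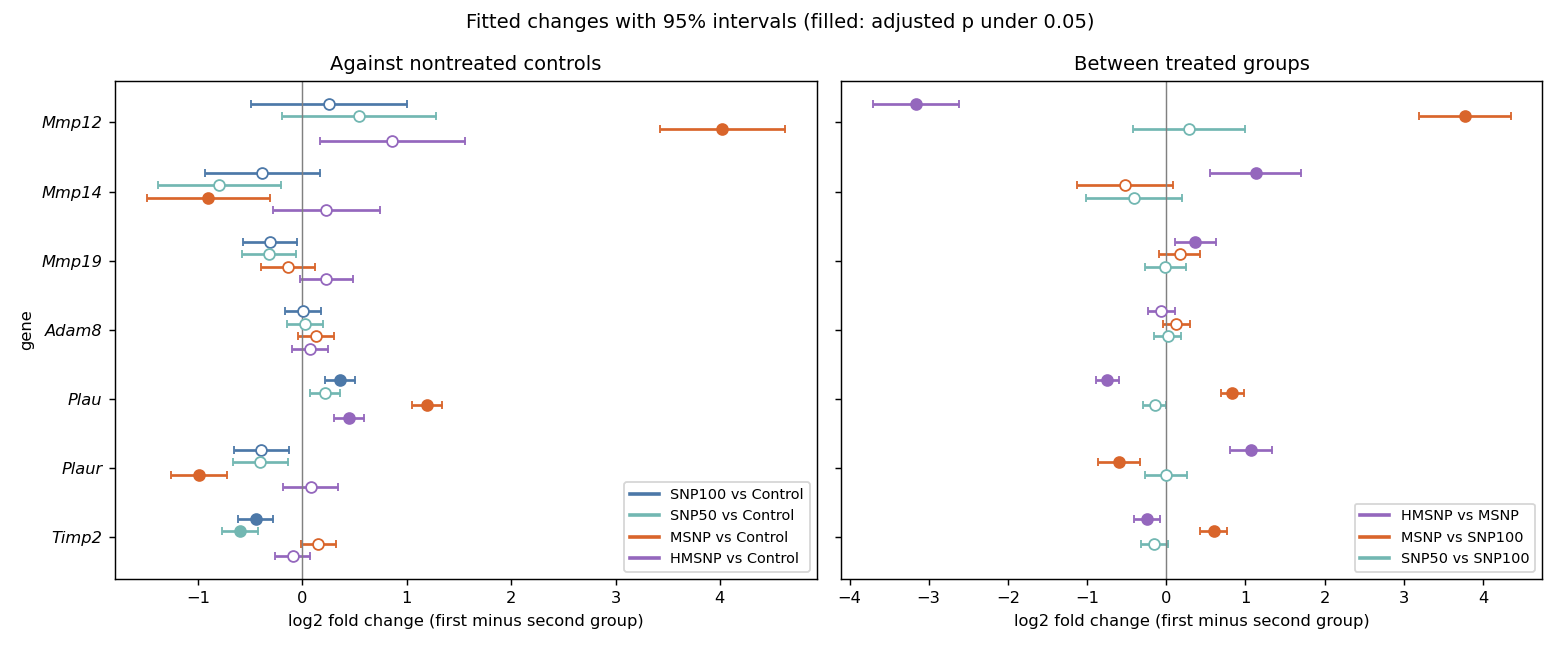
Log2 fold change (horizontal axes) with its 95% interval for the 7 members with enough counts (vertical axis), in each treated group against the controls at left and between treated groups at right. Filled points passed the edgeR test at an adjusted p under 0.05. Mmp12 reaches 4.02 with MSNP and -3.16 for HMSNP against MSNP, and Adam8 stays next to 0.

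MSNP and HMSNP share nominal diameter and dose and gave the one comparison between particles at a matched dose. HMSNP is hollow and, as the study describes it, also differs from MSNP in density and in surface composition. Of the 9 genes other than Adam19, 6 passed the edgeR test, where 20.2% of all tested genes did (33.9% without Control replicate 3). Mmp12 was 8.96-fold lower with HMSNP than with MSNP, a log2 fold change of -3.16 ± 0.255 (SE, edgeR adjusted p = 2.33e-07). Plau was lower by a log2 fold change of -0.75 ± 0.0678 (SE, edgeR adjusted p = 8.51e-07). Plaur was 2.10-fold higher, at 1.07 ± 0.126 (SE, edgeR adjusted p = 1.25e-05), and Mmp14 2.19-fold higher, at 1.13 ± 0.267 (SE, edgeR adjusted p = 0.00632). The receptor and Mmp14 thus stood opposite to urokinase and Mmp12.

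The other calls in that comparison, of Mmp19 and Timp2, were less steady. Mmp19 was higher with HMSNP by 0.37 ± 0.118 (SE, edgeR adjusted p = 0.0394), with no call without MSNP replicate 2 or 3 or HMSNP replicate 2 or 3 (edgeR adjusted p from 0.0876 to 0.168). Timp2 was lower by a log2 fold change of -0.24 ± 0.078 (SE, edgeR adjusted p = 0.0386), and this call held in only 7 of 22 alternative settings (edgeR adjusted p up to 0.2, without HMSNP replicate 1). Adam19 held 1 count against 15, a ratio of 0.0584, given as a description because it passed the count filter only through MSNP. Adam8 differed between both particles by -0.06 (95% interval -0.233 to 0.108), Timp1 held 14 counts against 7 and Mmp13 3 against 0, and none of these genes passed.

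MSNP and SNP100 share a nominal diameter but not a dose, 200 against 50 µg/mL, so porosity and dose cannot be told apart. With edgeR 4 of the 9 genes other than Adam19 passed, where 17.9% of all tested genes did (33.1% without Control replicate 3). Mmp12 was 13.6-fold higher with MSNP (edgeR adjusted p = 9.06e-08), Plau 1.78-fold higher (edgeR adjusted p = 3.69e-07) and Timp2 1.51-fold higher (edgeR adjusted p = 5.02e-05). Plaur was lower by a log2 fold change of -0.60 (edgeR adjusted p = 0.00296). Adam19, with 15 counts against 0, was at least 5.51-fold higher by the bound that takes the 15 counts as exact, again as a description. Timp2 passed here and not between MSNP and the controls, and its SNP100 libraries were the lower ones. Mmp13, with 0 counts against 10, was at least 3.03-fold lower with MSNP by the same kind of bound. It did not pass (edgeR adjusted p = 0.0771), but it did without Control replicate 3 (edgeR adjusted p = 0.0373), as did Adam8 at 0.14 (edgeR adjusted p = 0.0101).

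SNP50 and SNP100 differ in nominal diameter and also in dose, 25 against 50 µg/mL. None of the 10 genes passed the edgeR test or DESeq2, where 0% of all tested genes passed edgeR (0.433% without Control replicate 3). At an unadjusted p under 0.05, 1 member passed edgeR, Plau, with a log2 fold change of -0.15 (95% interval -0.291 to -0.00194). Of all 19839 tested genes 867 passed that unadjusted threshold. The interval for Timp2 was -0.323 to 0.0189 and for Adam8 -0.152 to 0.19, while for Mmp12 it was -0.422 to 0.997 on few counts. Absence of a call here does not show that both nonporous particles act alike.

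The families around the 10 genes were read from lists chosen with earlier results known. Of 19 other MMP genes, 10 had enough counts to test, none reached a mean of 1 CPM and none passed the edgeR test in any of the 7 comparisons, with a median log2 fold change of -0.47 for MSNP, beside 22.8% called and a median of -0.05 over all tested genes. Mmp9, which encodes a gelatinase of activated macrophages, was at 0.463 ± 0.0272 CPM in the controls and 0.181 ± 0.104 CPM after MSNP (SD, n = 3), a log2 fold change of -1.30 that did not pass (edgeR adjusted p = 0.0842). Mmp12 was therefore the only MMP gene among those tested that edgeR called higher with MSNP. Of 14 other ADAM and ADAMTS genes, 8 were tested, and with MSNP 1 rose and 2 fell, with a median of -0.32, beside the same 22.8% and -0.05. The gene that rose was Adamts1, which encodes a secreted proteoglycan-cleaving protease, from 2.66 ± 0.729 to 11.5 ± 0.972 CPM (SD, n = 3, edgeR adjusted p = 9.56e-08). Of 9 partners of ADAM10 and ADAM17, 3 were called with MSNP, also beside 22.8%, and the list median was -0.05. Tspan10 rose, and Tspan17 and Rhbdf1 fell, Rhbdf1 by 0.95 on the log2 scale (edgeR adjusted p = 1.4e-06). Rhbdf1 encodes an inactive rhomboid that helps ADAM17 mature. Rhbdf2 of the same list was at 76.0 ± 8.22 CPM in the controls and 86.9 ± 6.08 CPM after MSNP (SD, n = 3) and was not called. The Tspan17 value of -0.51 (edgeR adjusted p = 0.0373) kept its call in 15 of 22 alternative settings, and was -0.22 without Control replicate 3 (edgeR adjusted p = 0.142).

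Among 12 further plasminogen and urokinase genes, 8 were tested. With MSNP 2 rose and 5 fell, with a median log2 fold change of -0.43, beside 22.8% called in either direction and a median of -0.05 over all tested genes. Those that fell included Mrc2, which encodes a collagen-binding partner of the urokinase receptor, at -1.20 (edgeR adjusted p = 0.000114), and S100a10, part of a plasminogen receptor with annexin A2, at -0.75 (edgeR adjusted p = 0.004), or -0.40 without Control replicate 3 (edgeR adjusted p = 2.67e-05). Plgrkt, another plasminogen receptor gene, rose by 0.62 (edgeR adjusted p = 0.00403). HMSNP gave 1 higher, Itgb2, and 1 lower, Plat, where 5.16% of all tested genes were called. SNP100 gave 1 lower, Anxa2, where 0.912% of all tested genes were called. Like Plaur, Mrc2 was higher with HMSNP than with MSNP (log2 fold change 0.67, edgeR adjusted p = 0.0139).

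Of 12 other protease inhibitors 7 were tested, and 2 rose with MSNP, Serpinb9, an inhibitor of granzyme B, by 0.72 (edgeR adjusted p = 3.22e-05) and Cstb, the cathepsin inhibitor cystatin B, by 0.55 (edgeR adjusted p = 0.0211). The Cstb value was 0.89 without Control replicate 3 (edgeR adjusted p = 2.7e-10) and 0.46 without Control replicate 1, where it did not pass (edgeR adjusted p = 0.0559). The list median was 0.01, and over all tested genes 22.8% were called and the median was -0.05. Neither is a matrix inhibitor, and Timp2 did not pass in that comparison. All 4 lysosomal cathepsins with matrix substrates were tested. Of these, 3 rose with MSNP, with Ctsb from 2574 ± 145 to 5677 ± 168 CPM (SD, n = 3, edgeR adjusted p = 1.26e-09) and Ctsk by 0.84 (edgeR adjusted p = 2.01e-05), and the median was 0.62, beside the same 22.8% and -0.05. All 4 were lower with HMSNP than with MSNP, where 20.2% of all tested genes were called. Of 5 zymogen convertases and the MMP inducer, 3 were tested, and 1 was called with HMSNP, where 5.16% of all tested genes were. This was Furin, whose product activates MMP14, which fell by 0.49 (edgeR adjusted p = 0.00237). Of 14 matrix proteins, 9 were tested, and with MSNP 1 rose and 2 fell, with a median of -0.33, again beside 22.8% and -0.05. The tenascin gene Tnc fell by 2.30 (edgeR adjusted p = 0.000813) and the osteopontin gene Spp1 by 0.33 (edgeR adjusted p = 0.00343), on the log2 scale, and with the length offset the Spp1 value was -0.22.

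**Figure D3:**
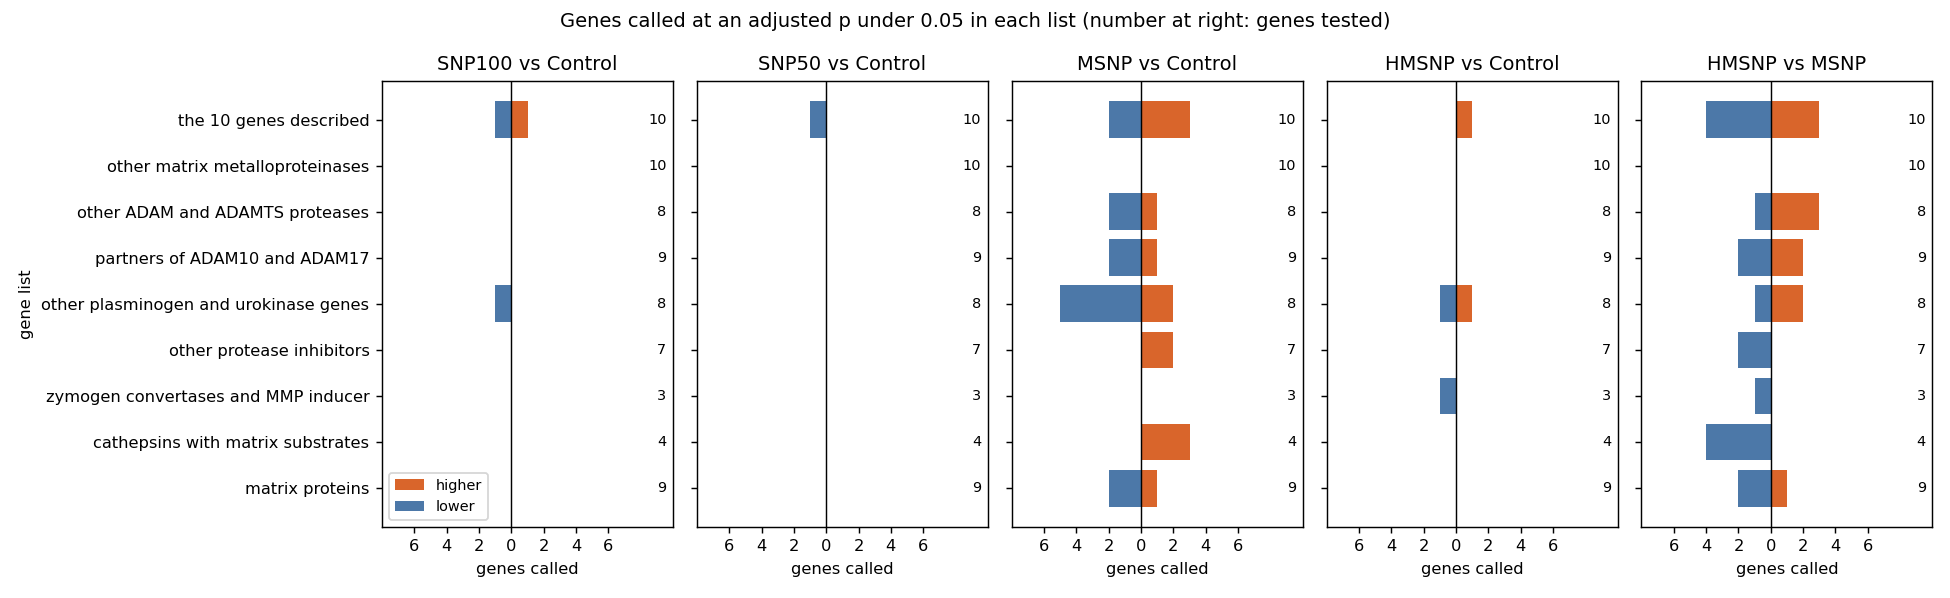
Number of genes called by edgeR (horizontal axes, higher to the right and lower to the left of 0) in each gene list (vertical axis) for 5 comparisons, with the number tested printed at the right of each panel. The bars of the members include Adam19, which passed the count filter only through MSNP. The MSNP panel holds calls in most lists, the other MMP genes have none in any panel, and all 4 cathepsins are lower with HMSNP than with MSNP.

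Markers of the osteoclast, a cell type that RAW 264.7 cells can form and that also uses MMPs and cathepsin K, moved both ways in the MSNP libraries. Of 8 markers, Atp6v0d2 rose from 30.3 ± 3.43 to 196.9 ± 8.35 CPM (SD, n = 3, edgeR adjusted p = 1.11e-11), and Ctsk rose as given above. Nfatc1 fell from 486.4 ± 133 to 89.8 ± 2.50 CPM (SD, n = 3, edgeR adjusted p = 1.75e-08), and Ocstamp and Acp5 fell too. Dcstamp and Oscar did not pass the edgeR test, and Calcr was at 0 in both groups. The summed level of the 8 was 336 to 348 CPM after MSNP and 426 to 667 CPM in the controls, with 5 and 6 of them at or above 1 CPM. Among the 7 macrophage markers, Cd68 rose from 957.3 ± 36.6 to 1536 ± 30.0 CPM (SD, n = 3, edgeR adjusted p = 1.01e-06), while Lyz2, Csf1r, Fcgr1 and Itgam fell and Adgre1 and Ptprc did not pass. Their sum was 12600 to 13600 CPM after MSNP and 15000 to 18800 CPM in the controls. The part of these markers in the MSNP values of Mmp12, Plau and Plaur was not tested.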

How the data were processed

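RNA from 15 RAW 264.7 samples, 3 in each of 5 groups, had been sequenced from poly(A)-selected directional libraries and mapped to GRCm39. The submitters' processing notes name cutadapt 1.16, STAR 2.7.9a and featureCounts 1.6.3. The annotation release and strand setting are not given in the sources used here. The table the authors deposited holds raw counts per gene and library, not normalized. Groups came from the sample labels, and doses, diameters and time from the study's methods.

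The members and the other gene lists were chosen with earlier results of these data known. All 10 members were named. From other lists, up to 4 called genes per comparison with the largest change and a mean of at least 1 CPM could be named, as could Plat, Lrp1, Mmp2 and Mmp9. The osteoclast and macrophage markers and Rhbdf2 fall outside that rule and were named after their values were seen. A gene of the plasminogen and urokinase list is not reported here.

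Gene symbols were matched for 56630 of 57186 identifiers to GENCODE annotation of GRCm39. Genes whose counts over the 15 libraries added up to 10 or more were tested with edgeR 4.0.16 (TMM, quasi-likelihood F test, group as the only term, all libraries in 1 model) in R 4.3.3, and p-values were Benjamini-Hochberg adjusted over all 19839 tested genes with a threshold of 0.05. The SE was the absolute log2 fold change divided by the square root of the F statistic. The 95% intervals use that SE and the total degrees of freedom of that fit, residual plus prior. CPM used TMM-scaled totals. The procedure was tested on simulated data. Alternatives were DESeq2 1.42.0, RLE factors, other count filters, the 6 compared libraries alone, a replicate block, a length offset and leaving out each library. Promoter windows came from RefSeq (GRCm38.p6) and were used for sequence only. Bounds for genes at 0 counts take 3 counts over the group as the limit and the counts of the other group as exact.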

Additional observations from a re-analysis of the deposited data

How the results depend on the processing

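The 22 alternative settings were 15 that left out 1 library each and 7 others. The calls of Mmp12, Plau and Plaur for MSNP against the controls, HMSNP against MSNP and MSNP against SNP100 held in all 22, as did Mmp14 for HMSNP against MSNP and Timp2 for MSNP against SNP100. The number of the 10 genes called is given here with Adam19 included, although Adam19 passed the count filter only through its MSNP libraries. Without Adam19 the main counts were 4 for MSNP, 6 for HMSNP against MSNP and 4 for MSNP against SNP100. The number with Adam19 changed by over 1.5 times as follows. With only the 6 compared libraries it was 0 in place of 2 for SNP100, 0 in place of 1 for SNP50 and 0 in place of 1 for HMSNP against the controls. In those fits 0%, 0.00574% and 0.439% of all tested genes were called. With DESeq2 the number was 3 in place of 5 for MSNP, or 3 in place of 4 without Adam19, and 2 in place of 1 for SNP50. DESeq2 called 24.2% of all tested genes for MSNP and 2.98% for SNP50. With the length offset the number was 2 in place of 1 for SNP50, where Plaur was called in addition to Timp2 (edgeR adjusted p of Plaur 0.0372). That setting called 2.53% of all tested genes for SNP50. Smaller changes with DESeq2 were 6 in place of 7 for HMSNP against MSNP and 4 in place of 5 for MSNP against SNP100. Both differences were Adam19 alone, and 20.8% and 19% of all tested genes were called. With the 6 compared libraries the number was 4 in place of 5 for MSNP, where Mmp14 did not pass, beside 13% of all tested genes. For MSNP against SNP100 it was 7 in place of 5, where Mmp13 and Adam8 did pass, beside 40.9% of all tested genes. The cause was not tested. Leaving out 1 library gave 0 to 2 calls for SNP100 (0 without SNP100 replicate 2 or 3, and 1 without Control replicate 1), 1 to 2 for SNP50 (2 without Control replicate 3), 4 to 5 for MSNP, 1 to 3 for HMSNP (3 without Control replicate 3), 4 to 7 for HMSNP against MSNP (4 without MSNP replicate 2), 5 to 7 for MSNP against SNP100 and 0 for SNP50 against SNP100. The share of all tested genes called in these settings moved as well. It was 0.29% to 5.16% for SNP100, 0.443% to 18.9% for SNP50, 17.4% to 33.2% for MSNP and 2.51% to 25.2% for HMSNP. Between particles it was 16.1% to 33.9% for HMSNP against MSNP, 13.4% to 33.1% for MSNP against SNP100 and 0% to 0.433% for SNP50 against SNP100.

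Directions were followed for 7 members, not for Mmp13, Adam19 and Timp1. Among these 7, the directions that turned were all of uncalled values near 0. With 1 library left out, the Adam8 log2 fold change ranged from -0.10 to 0.096 for SNP100, from -0.085 to 0.11 for SNP50 and from -0.036 to 0.16 for HMSNP, each lowest without Control replicate 3, and it was also negative for SNP100 without SNP100 replicate 2. For SNP50 against SNP100, it was -0.012 with the length offset and ranged from -0.0022 without SNP100 replicate 1 to 0.039. In the same comparison Mmp19 ranged from -0.098 to 0.061, positive without SNP100 replicate 1 or 2 or SNP50 replicate 2, and Plaur from -0.076 to 0.10, positive without SNP100 replicate 3 or SNP50 replicate 2.

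Samples with the same replicate number had a median correlation of their deviations of 0.0156, over 0.1 in 10 of 30 pairs. For samples with different numbers it was -0.0148, over 0.1 in 21 of 60 pairs. No pairing by number was seen. With correlations from -0.517 to 0.573 for the same number, the check cannot decide whether a weak one exists. With the replicate block the calls, Adam19 included, were 2, 1, 5 and 1 of 10 for SNP100, SNP50, MSNP and HMSNP against the controls. The shares of all tested genes were 0.716%, 0.907%, 22.1% and 4.46%. The calls were 5 of 10 for HMSNP against MSNP, where Mmp19 and Timp2 did not pass, 5 for MSNP against SNP100 and 0 for SNP50 against SNP100. There 19.2%, 16.9% and 0% of all tested genes were called. Depth limited Mmp13, Timp1 and Adam19, which the stricter count filter left untested, and Mmp14.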

Other observations

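Among the named genes of the wider lists, the call of Itgb2, the gene of the beta chain of the leukocyte integrins, for HMSNP against the controls (log2 fold change 0.28, edgeR adjusted p = 0.0494) held in only 4 of 22 alternative settings. That of Anxa2, the annexin A2 gene, for SNP100 (log2 fold change -0.40, edgeR adjusted p = 0.0365) held in 11 of 22. For MSNP against the controls, the calls of Plat, Adamts1 and Ctsb held in all 22. Mrc2 kept its HMSNP against MSNP call in 18 of 22 settings, and not without MSNP replicate 1 or 3 or HMSNP replicate 2 or 3.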
